A study of Oryza sativa with 2 samples.

Results

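The LOG-like (LOGL) genes of rice encode relatives of LONELY GUY (LOG), the enzyme that activates cytokinin. Members were taken as the genes whose symbol or synonym in the rice gene table is LOGL1 to LOGL10, keeping those with a probe set. Of the 10 names, 9 were found in the gene table, and 7 of these genes were read by 8 probe sets, among 17905 genes on the array that could be named. The measured members were LOGL1, LOGL3, LOGL5, LOGL6, LOGL7, LOGL9 and LOGL10. LOGL2 was matched by no name, and LOGL4 and LOGL8 were tied to no probe set, so that these 3 are not analysed here.

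Leaf RNA came from seedlings of the indica cultivar 9311, either nontransgenic or carrying an OsEATB transgene, an ERF-family transcription factor gene. Both groups were grown without a stress treatment in diluted Murashige and Skoog medium at 28 °C with 14 h light and 10 h dark, and each supplied the leaves of 10 plants that had reached 4 leaves. Each group was represented by 1 one-colour array, so that no difference has a replicate behind it and no standard error or p-value exists. Precision is limited throughout by there being 2 arrays. The labels used here give neither the promoter of the transgene nor the number of transgenic lines, and OsEATB was matched by no name and is not analysed here, so that the group labels stand without a check from the transgene.

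Cytokinins are adenine-derived hormones that keep shoot meristems active, delay leaf senescence and promote shoot branching. They are first made as nucleotides, which are inactive. LOG enzymes cut off the ribose phosphate in a single step and release the free base, the form that the receptors bind, so that the place and amount of LOG activity help to set where the hormone can act. In rice the founding gene, LOG, is known for keeping the shoot meristem active.

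Values are the log2 signals deposited by the authors, and a log2 ratio is the transgenic minus the nontransgenic value. Each array was given a floor at its own 40th percentile, 4.41 for nontransgenic and 4.61 for transgenic leaves, and signals below it were treated as background. A gene passed the level filter if one of its probe sets was at or above the array's median in either group. Of the 7 measured members, 6 passed, and each of the 6 reached the median on both arrays, so that none passed through its brighter array alone.

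Signals of the family did not all differ in the same direction. LOGL9 and LOGL10 were lower in the transgenic leaves by more than 2-fold, LOGL1 and LOGL3 were lower by less than 2-fold, and LOGL5 and LOGL7 were higher by less than 2-fold. The count was therefore 2 of 6 genes at least 2-fold lower, against 4.44% of the 15192 genes that passed the filter, and 0 of 6 at least 2-fold higher, against 6.07% of those genes. With 6 members and 1 array a group, these counts carry no test. In leaf tissue, fewer cells of a type and less RNA per cell cannot be told apart.

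**Figure D1:**
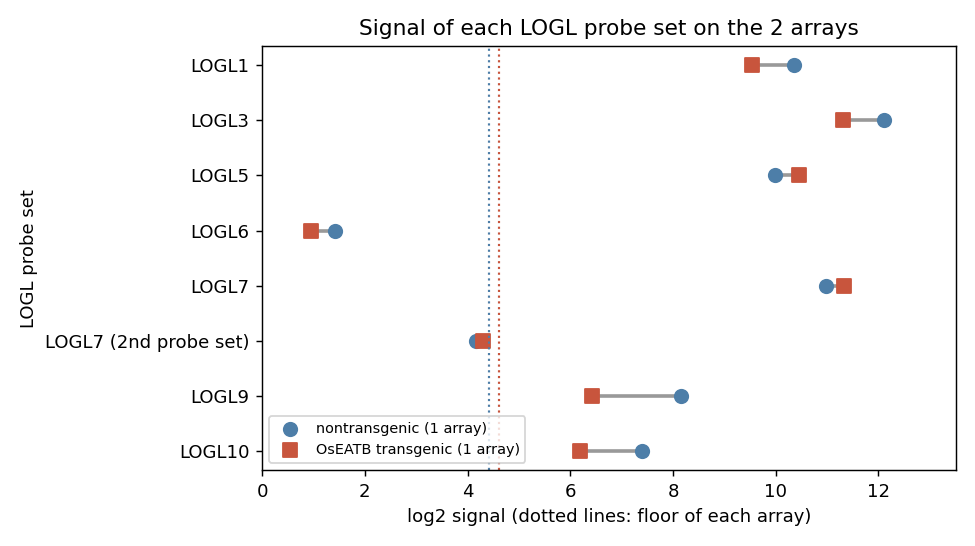
Log2 signal (horizontal axis) of the 8 LOGL probe sets on the nontransgenic array (circles) and the OsEATB transgenic array (squares), 1 array each, with the floor of each array as a dotted line. LOGL9 shows the widest gap, from 8.16 to 6.42, and LOGL6 and the second probe set of LOGL7 lie below both floors.

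LOGL9 (LOC4347769, on chromosome 9) was read by 1 probe set. Its log2 signal was 8.16 in nontransgenic and 6.42 in transgenic leaves, or 286 and 85.7 on the linear scale. This was a 3.34-fold lower signal, a log2 ratio of -1.74, and the lowest ratio of the family. The transgenic signal still lay above the floor, so the ratio was taken from both signals and not from the floor value. The floor is a set percentile and no detection calls were used, so background may still be part of these signals. Among all genes that passed the filter, 0.889% had a ratio as low or lower.

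LOGL10 (LOC4348914, on chromosome 10) was likewise read by 1 probe set. Its log2 signal was 7.40 in nontransgenic and 6.18 in transgenic leaves, or 169 and 72.5 on the linear scale. The signal was 2.32-fold lower, at a log2 ratio of -1.22, and was also above the floor on both arrays. A ratio as low or lower was found in 2.73% of all genes. With a pseudocount of 64 added to the linear signal in place of the floor, the log2 ratio of LOGL10 was -0.77 and no longer reached 2-fold, while that of LOGL9 was -1.23. Both genes lay below the 75th percentile of each array (8.45 and 8.38), in the range where ratios scatter more.

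LOGL3 (LOC4331344, on chromosome 3) was read by a single probe set. Its log2 signal was 12.11 in nontransgenic and 11.31 in transgenic leaves, or 4409 and 2546 on the linear scale, a 1.73-fold lower signal at a log2 ratio of -0.79. LOGL1 (LOC4327684, on chromosome 1) had log2 signals of 10.35 and 9.54, or 1306 and 742 on the linear scale, which was 1.76-fold lower at a log2 ratio of -0.82. The ratios of LOGL1 and LOGL3 were thus close to each other and short of 2-fold. The probe set of LOGL1 carries the array maker's suffix for probes shared between transcripts (_x_at), so that its signal may include RNA of other genes.

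LOGL5 (LOC4334848, on chromosome 3) stood at log2 signals of 9.99 and 10.46, or 1016 and 1404 on the linear scale. It was 1.38-fold higher in the transgenic leaves, at a log2 ratio of 0.47, the highest of the family. LOGL7 (LOC4339472, on chromosome 5) had log2 signals of 10.99 and 11.32 on the brighter of its 2 probe sets, or 2029 and 2561 on the linear scale. It was 1.26-fold higher, at a log2 ratio of 0.34. From LOGL9 to LOGL5 the log2 ratios of the family ran from -1.74 to 0.47.

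The second probe set of LOGL7 had log2 signals of 4.17 and 4.29, below the floor on both arrays. It gives no ratio and therefore no second reading of LOGL7. LOGL6 (LOC4336417, on chromosome 4) was likewise below the floor on both arrays, at 1.42 and 0.95, and no fold was computed for it. No member had 2 probe sets above the floor, so that no ratio of the family was read more than once.

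**Figure D2:**
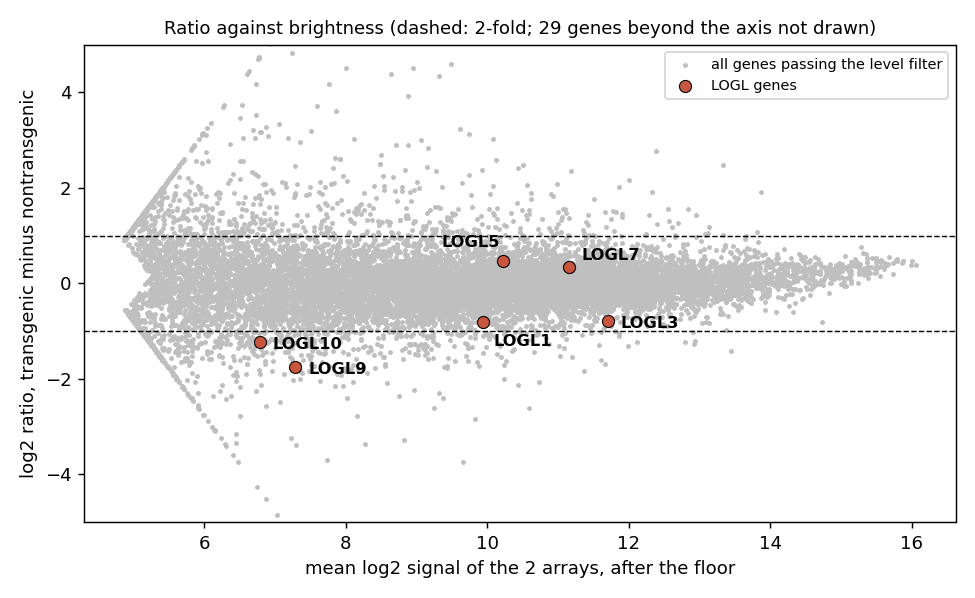
Log2 ratio (vertical axis) against the mean log2 signal of both arrays after the floor (horizontal axis) for the 15192 genes that passed the level filter (grey) and the 6 LOGL genes (red), with dashed lines at 2-fold. The grey cloud narrows with brightness, so that LOGL3 at -0.79 lies near its lower edge while LOGL10 at -1.22 lies among many genes of its brightness.

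Because ratios scatter more among dim genes, each member was also set beside the other genes whose mean log2 signal lay within 0.5 of its own. Around LOGL9 there were 1374 such genes, of which 7.93% were at least 2-fold lower and 1.82% had a ratio as low as that of LOGL9. Around LOGL10 there were 1268 genes, of which 9.78% were at least 2-fold lower and 6.07% had a ratio as low. For LOGL10, therefore, a ratio of this size was not rare among genes of like brightness.

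Around LOGL3 there were 1931 genes, of which 0.621% were at least 2-fold lower and 1.04% had a ratio as low as that of LOGL3. Around LOGL1 there were 2467 genes and 3.36% had a ratio as low. Read this way, LOGL3, which did not reach 2-fold, lay about as far out among genes of its own brightness as LOGL9 did, and LOGL10 lay less far out than either. Of the higher members, 7.84% of 2575 genes of like brightness had a ratio as high as that of LOGL5, and 11.5% of 2362 genes one as high as that of LOGL7.

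Genes with several passing probe sets gave a further measure of scatter, although it comes from a single hybridisation a group and leaves out the spread between plants. The scatter of 1 log2 ratio was taken as the SD of the difference between the brightest and the next probe set, divided by the square root of 2. Among 186 such genes near the brightness of LOGL9 it was 0.71, against the ratio of -1.74. Among 163 genes near LOGL10 it was 0.75, against -1.22. It was 0.42 among 378 genes near LOGL3, against -0.79, and 0.60 among 438 genes near LOGL1, against -0.82. The ratios of LOGL5 and LOGL7 lay within this scatter, at 0.47 beside 0.59 among 432 genes and at 0.34 beside 0.44 among 465 genes. The ratios of the 4 lower members were all larger than this scatter, which is 1 SD and no test. Only the brightest probe set of each gene was matched to the member's brightness. The next one could be dimmer, so that this scatter may differ from that of a ratio at the member's own brightness.

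The median log2 ratio over the 6 members was -0.80, beside -0.01 over all 15192 genes, and 4 of the 6 ratios were below 0, as were 51.4% of all ratios. This median depends on the dim members: over the 4 members at or above the 75th percentile (LOGL1, LOGL3, LOGL5 and LOGL7) it was -0.23, with 0 genes at 2-fold.

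Under the 10 other processing settings tried, no LOGL ratio changed sign. Most of them could not change a ratio, because each member had 1 passing probe set, above the median on both arrays. Changing the floor or the level filter, averaging probe sets or leaving out shared ones could only keep or remove a value. Only the pseudocount and the median, quantile and lowess scalings could move a ratio. LOGL3 ranged from -0.79 to -0.78, LOGL1 from -0.82 to -0.76, LOGL5 from 0.44 to 0.51 and LOGL7 from 0.33 to 0.36. LOGL9 ranged from -1.74 to -1.23 and LOGL10 from -1.23 to -0.77. LOGL1, LOGL9 and LOGL10 each had a value in 9 of the 10 settings.

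**Figure D3:**
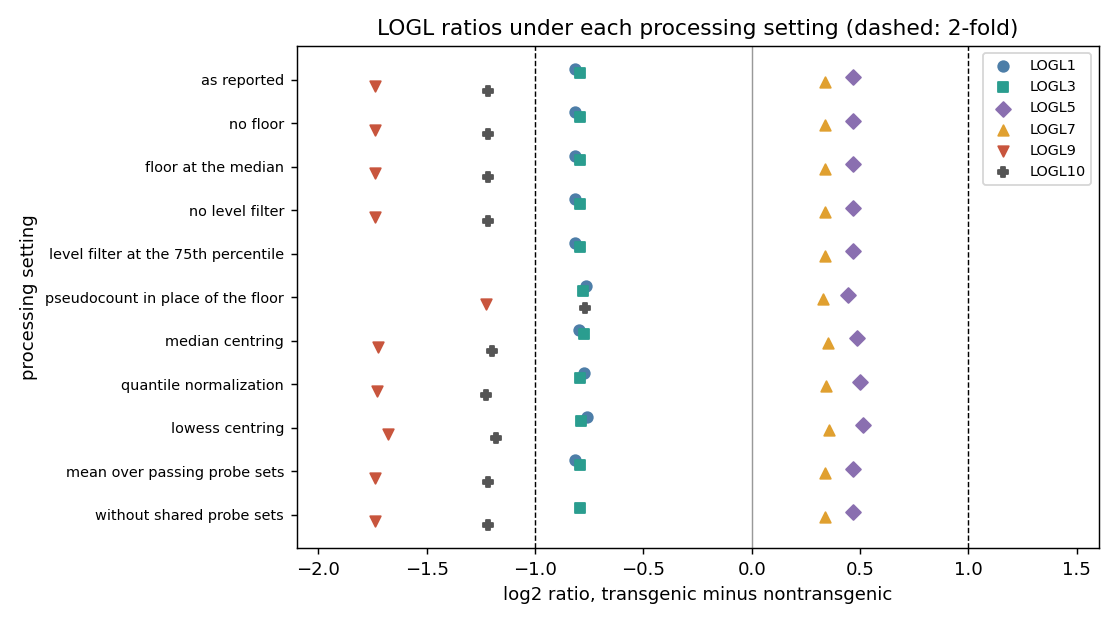
Log2 ratio (horizontal axis) of the 6 LOGL genes under the reported and the 10 other processing settings (rows), with dashed lines at 2-fold. LOGL9 and LOGL10 lose their values with the 75th-percentile filter, LOGL1 loses its value when shared probe sets are left out, and LOGL10 crosses the 2-fold line with the pseudocount, at -0.77.

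The remaining cytokinin genes were described from a list of symbols for each step of the pathway. Of 79 symbols, 34 were found in the gene table. The genes tied to a probe set numbered 23, and 19 of these passed the filter. Of the 19, 2 were higher by 2-fold or more and 0 were lower by as much, beside the 6.07% and 4.44% of all genes given above, and their median log2 ratio was 0.13. None of the symbols for cytokinin synthesis (12), glucosylation (3), or transport and purine salvage (10) matched the gene table, so that these steps, among them the one that supplies LOG enzymes with their substrate, are not analysed here.

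LOG itself (LOC4324445, on chromosome 1) had log2 signals of 11.52 and 11.65, a log2 ratio of 0.13. Its second probe set was below the floor on both arrays, at 2.73 and 4.39. The founding gene thus differed little between the arrays.

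Cytokinin oxidases (CKX) break the hormone down, and 3 of them passed the filter, with 0 at 2-fold and a median log2 ratio of -0.49. CKX11 had log2 signals of 11.31 and 10.41, a log2 ratio of -0.90, but its dimmer probe set went the other way, at 4.98 and 5.70. The dimmer probe set lay below the nontransgenic median of 5.16 and passed the filter only through the transgenic array. Its sign was therefore favoured by the filter. The list median was -0.09 with the mean over passing probe sets, which takes in that dimmer probe set, and -0.69 with the filter at the 75th percentile. CKX4 stood at 8.84 and 8.35 and CKX5 at 6.16 and 6.29.

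Of the histidine kinase receptors, HK3 had log2 signals of 11.73 and 11.92 and HK4 of 9.53 and 9.90. HK5 stood at 13.19 and 12.67 on a probe set that may be shared between transcripts (suffix _s_at). Its other probe set gave 11.81 and 11.26. All 3 differed by less than 2-fold. Of the genes listed for the phosphotransfer step, between receptors and response regulators, 3 passed the filter. Their median log2 ratio was 0.04, which is the ratio of PHP5. The synonym OsHP1 is shared by LOC4347886 and LOC4346300 in the gene table, so they are given by their other synonyms, AHP2 and AHP1. AHP2 (LOC4347886) stood at 13.47 and 13.42, AHP1 (LOC4346300) at 10.72 and 10.86, and PHP5 at 6.54 and 6.58. The probe set used for AHP1 also carries the suffix _s_at.

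Type-A response regulators are induced by cytokinin and dampen its signalling. All 5 that passed had a ratio above 0, as had 48.6% of all genes, with a median log2 ratio of 0.27. RR4 and RR2 were the 2 genes at 2-fold, with log2 signals of 7.06 and 8.80 for RR4 and of 6.60 and 8.04 for RR2. The probe set of RR4 is also one that may be shared between transcripts (suffix _s_at). RR6 stood at 9.58 and 9.79, RR9 at 8.81 and 9.03, and RR1 at 6.18 and 6.45. Type-B response regulators, transcription factors that switch on the response, had a median of -0.03 over 4 genes and 0 at 2-fold. Among them RR21 stood at 12.03 and 12.17, RR24 at 12.11 and 11.91, and RR22 at 10.48 and 10.21.

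**Figure D4:**
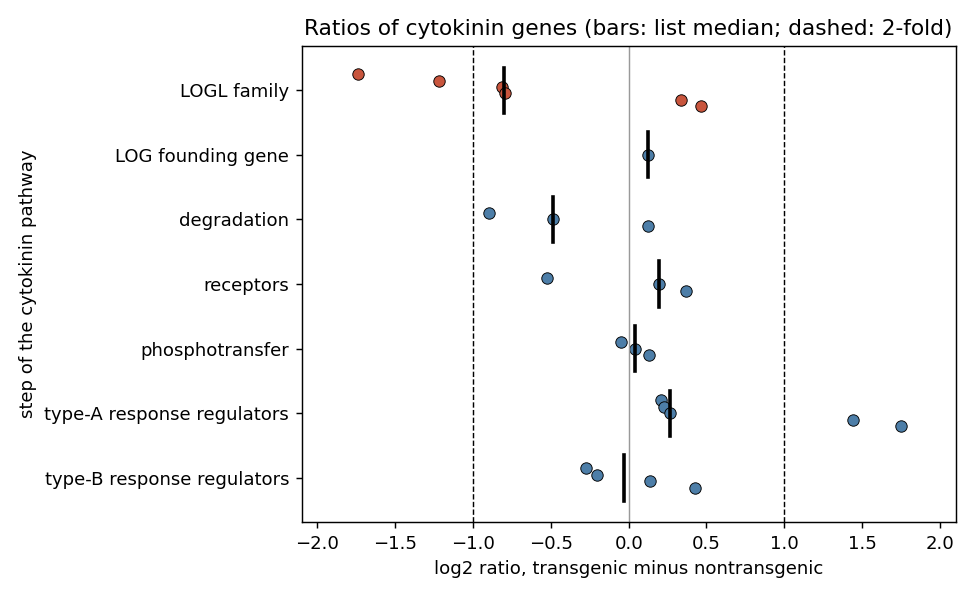
Log2 ratio (horizontal axis) of every cytokinin gene that passed the level filter, by step of the pathway (rows), 1 point a gene, with list medians as bars and dashed lines at 2-fold. The LOGL family (red) has 2 genes beyond the lower 2-fold line and a median of -0.80, and the type-A response regulators have 2 genes beyond the upper line and a median of 0.27.

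The genes beside the 2-fold members in the reference gene order were looked up. Next to LOGL9, LOC4347768 had log2 signals of 9.60 and 9.83, a log2 ratio of 0.23. Next to LOGL10, LOC4348915 had 10.56 and 10.68, a log2 ratio of 0.12. The gene on the other side of each was tied to no probe set. The measured neighbours did not share the lower signals of LOGL9 and LOGL10.

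Leaf markers were bright on both arrays, and all 4 that passed had ratios from 0.39 to 0.49, while 48.6% of all genes had a ratio above 0. These markers were not set beside genes of like brightness. Some other very bright genes also had ratios above 0 and some had ratios below 0, and their shares were not computed. The ratios of the leaf markers are therefore not read as particular to them. The summed linear signal of the 8 leaf marker probe sets was 238377 in nontransgenic and 314256 in transgenic leaves, with 0 probe sets at 0, although the probe sets of RBCS disagreed in sign. The RBCS ratio of 0.49 came from a probe set with the suffix _x_at. Its probe set without such a suffix had a log2 ratio of -0.05. The remaining RBCS probe sets had -0.22 and -0.59, the latter with a transgenic signal below the floor. Shoot meristem markers were mostly dim. Of their 7 probe sets, 3 were below the floor on both arrays and 0 were at 0. The defining gene OSH1 was below it on 1 probe set on both arrays and on the other stood at 4.64 and 3.94. OSH43 was 2.14-fold higher, at dim log2 signals of 4.74 and 5.84. It passed the filter only through the transgenic array, where it was higher, so that its fold was favoured by the filter. The other probe set of OSH43 was below the floor on both arrays, at 3.78 and 4.59. Only HOS59 was bright, at 14.42 and 14.68, and it accounts for nearly all of the summed signals of 22064 and 26462. Its level was unlike that of every other gene on the list, so the sums are not read as meristem signal. Root markers matched no gene. The part of tissue makeup in the LOGL ratios was not tested.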

How the data were processed

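Leaf RNA of nontransgenic and OsEATB transgenic seedlings was measured on 2 arrays, 1 for each group. The deposited values are log2 signals, and MAS5 is the tool named, per the submitters' processing notes. The sources used here give neither its version nor its scaling target, and no detection calls were used. Unlogged, both arrays had a mean of 499.9 after 2% of values were trimmed at each end, so that overall differences in brightness were scaled away.

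Control probe sets (187 of 57381) were set apart. Names came from the array platform's annotation (22436 with 1 gene, 95 with several, 34663 with none) and all 17905 gene numbers were found in a reference of the assembly ASM3414082v1 (Oryza sativa Japonica Group), used for names, chromosomes and neighbours. The floor, the level filter and the 2-fold threshold are given above. A gene was represented by its passing probe set with the highest mean signal, and probe sets below the floor on both arrays gave no ratio. Members and lists were chosen with earlier results of these data known. Named genes were all measured members, every other cytokinin gene at 2-fold, up to 3 further genes a list by mean signal, and the direct neighbours of 2-fold members. OSH1, OSH43, HOS59 and RBCS were named among the markers after their values were seen. With 1 array a group, no test was run. The counting was tested on simulated data with pandas 2.3.3 and statsmodels 0.14.6. The simulated noise was smaller than the scatter given above, and changes were planted only in genes brighter than LOGL9 and LOGL10. It therefore does not cover the range of those 2 genes.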

Additional observations from a re-analysis of the deposited data

How the results depend on the processing

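The alternatives were no floor, the floor at the median, no level filter, a filter at the 75th percentile, a pseudocount of 64, median, quantile and lowess scaling, the mean over probe sets, and leaving out probe sets that may be shared between transcripts. The count of LOGL genes at least 2-fold lower was 2 as reported, 1 with the pseudocount, where LOGL10 had a log2 ratio of -0.77, and 0 with the 75th-percentile filter, which leaves out LOGL9 and LOGL10. It stayed at 2 in the other 8 alternatives, and the count at least 2-fold higher was 0 in all 10. Of these 8, only the median, quantile and lowess scalings could have changed the count of lower genes. The rest leave the ratios of LOGL9 and LOGL10 as they are. The family median ranged from -0.80 to -0.23, the latter with the 75th-percentile filter. The other cytokinin genes at least 2-fold higher were 2 as reported, and 1 with the 75th-percentile filter or without shared probe sets. Over all genes, 922 were higher and 674 lower as reported, 619 and 507 with the floor at the median, 356 and 259 with the pseudocount, and 297 and 218 with the 75th-percentile filter. Higher genes were 57.8% of those at 2-fold as reported, 53.4% with quantile normalization (838 and 732) and 50.8% with lowess centring (799 and 773). Windows of 0.25 and 1 in place of 0.5 around a member's brightness, chosen after seeing the data, gave 1.75% and 2.13% of genes as low as LOGL9, 1.32% and 1.33% for LOGL3, and 5.55% and 6.38% for LOGL10. No paired analysis was possible because each group has 1 array. Dim signals limit LOGL9 and LOGL10 most, and the absence of replicates limits every ratio.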
